A study of Mus musculus with 7 samples.

Results

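Dentate granule neurons are the principal cells of the hippocampal dentate gyrus, and 773 of 58169 nuclei that passed the quality filters (1.33%) met the rule used to pick them here. A nucleus qualified when Slc17a7, the vesicular glutamate transporter of forebrain excitatory neurons, was detected together with at least 4 of 7 granule cell markers: Prox1, Glis3, Dsp, Stra6, Chst9, Vwa3b and C1ql2. The summed UMIs (unique molecular identifiers, 1 per captured transcript) of these markers also had to reach 10 per 10000. The nuclei were thus selected on the measured UMIs of these 8 genes, and where a value of one is given below it is a description only.

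The nuclei came from 7 mice of the 5xFAD +/- genotype, aged 6 months, and each mouse gave 1 library. Of these mice, 4 had received ANGPT2 AAV and 3 had received control AAV, an adeno-associated virus injected behind the eye at 4 months of age, 2 months before collection. The ANGPT2 AAV libraries were a male and a female of batch 1 and a male and a female of batch 2, and the control AAV libraries were a male and a female of batch 1 and a male of batch 2. Every mouse thus carried the 5xFAD transgenes, which are expressed in neurons under a Thy1 promoter and lead to amyloid deposition, and no mouse without these transgenes was analysed here. The tissue was labelled as subcortex, thalamus and hippocampus, and the promoter and target cells of the AAV were not given in the sources used here. The comparison asks whether granule neurons of this amyloid model differ in number or in transcripts after delivery of angiopoietin-2, a ligand of the endothelial receptor TIE2.

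Granule neurons receive cortical input from the perforant path and send mossy fibre axons to hilar mossy cells and CA3 pyramidal cells. They are known for sparse firing, and a granule neuron that has fired switches on immediate early genes such as Fos, Arc, Npas4 and the Nr4a family, followed by delayed genes such as Bdnf and Nptx2. Mature granule neurons also hold much calbindin, the calcium-binding protein made from Calb1, and Prox1 is the transcription factor that fixes their identity.

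A single library stood apart in the activity genes. In the control female of batch 1, every one of the 77 granule nuclei had UMIs of at least 3 of 20 immediate early genes, and the summed level of these genes was 1732 CPM, that is, UMIs scaled to the same total in every library. In the other 6 libraries the sum lay between 107 and 155 CPM. This library was already known for high immediate early genes when the rule was written, so its elevation is described and not tested, and the comparisons of ANGPT2 AAV with control AAV are given with all libraries and without it. It was also the only female among the controls, so sex, this mouse and its library cannot be told apart.

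Many promoters of such genes carry the cAMP response element, which binds CREB. The core of this element, TGACGT, was searched on both strands (the other strand reads ACGTCA) in the 250 bases before each RefSeq gene start (GRCm38.p6). It was found for 7 of 16 matched immediate early genes (43.8%), 5 of 16 delayed activity-regulated genes (31.2%) and 1 of 15 granule identity genes (6.67%), against 1971 of all 27025 genes with a window (7.29%). The windows of 4 genes that were high in the control female of batch 1 show where these letters lie. Capitals mark the core on either strand, each sequence runs 5′ to 3′ on the gene's own strand, and a match is a description of letters and not a shown binding site.
Fos (chr12:85473640-85473889, plus strand): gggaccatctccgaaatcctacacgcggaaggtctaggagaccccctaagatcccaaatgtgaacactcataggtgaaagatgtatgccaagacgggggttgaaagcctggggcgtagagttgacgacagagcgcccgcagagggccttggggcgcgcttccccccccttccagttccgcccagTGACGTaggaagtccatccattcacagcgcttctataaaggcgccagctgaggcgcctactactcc
Npas4 (chr19:4989972-4990221, minus strand): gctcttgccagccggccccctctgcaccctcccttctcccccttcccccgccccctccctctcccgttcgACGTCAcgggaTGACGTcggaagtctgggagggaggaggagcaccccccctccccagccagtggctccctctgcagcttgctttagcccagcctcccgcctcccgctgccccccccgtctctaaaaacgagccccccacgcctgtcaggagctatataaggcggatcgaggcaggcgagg
Nr4a3 (chr4:48045055-48045304, plus strand): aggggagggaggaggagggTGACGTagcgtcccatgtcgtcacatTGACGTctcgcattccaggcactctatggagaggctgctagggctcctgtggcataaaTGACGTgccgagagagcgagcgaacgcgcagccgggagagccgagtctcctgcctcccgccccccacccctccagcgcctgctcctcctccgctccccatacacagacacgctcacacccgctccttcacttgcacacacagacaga
Bdnf (chr2:109692186-109692435, plus strand, 1 of 7 windows of this gene): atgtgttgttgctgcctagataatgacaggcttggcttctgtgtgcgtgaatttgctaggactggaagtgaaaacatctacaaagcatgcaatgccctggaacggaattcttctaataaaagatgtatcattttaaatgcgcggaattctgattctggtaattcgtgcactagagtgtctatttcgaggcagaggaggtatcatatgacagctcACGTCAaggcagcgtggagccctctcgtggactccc
The first base of the core lay 66 bases before the start of Fos and 36 bases before this start of Bdnf. Npas4 held 2 matches, at 180 and 169 bases, and Nr4a3 held 3, at 231, 205 and 147 bases.

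The shares of granule nuclei under ANGPT2 AAV and control AAV overlapped, and the difference of their means was smaller than the spread over mice. The ANGPT2 AAV libraries held 222, 68, 18 and 38 granule nuclei (male and female of batch 1, then male and female of batch 2), and the control AAV libraries held 327, 77 and 23 (male and female of batch 1, then male of batch 2). As a share of all nuclei that passed, this was 2.92%, 0.710%, 0.286% and 0.455% under ANGPT2 AAV, against 3.61%, 1.01% and 0.239% under control AAV. The males of batch 1 were the highest library of each group, and the groups overlapped.

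The mean share was 1.09% ± 1.23 under ANGPT2 AAV (SD, n = 4) and 1.62% ± 1.77 under control AAV (SD, n = 3). The ANGPT2 AAV mean was thus -0.527 percentage points from the control AAV mean, with an exact two-sided permutation p of 0.543, where 0.0286 is the smallest p that 4 against 3 libraries allow. Within batch 1 the means were 1.81% for ANGPT2 AAV and 2.31% for control AAV, and within batch 2 they were 0.371% and 0.239%, so the sign differed between batches. Without the control male of batch 1 the difference was 0.469 points (exact permutation p = 0.8), and leaving out the control female of that batch gave -0.834 points (exact permutation p = 0.733). The labels do not give how much hippocampus each dissection held, so a difference in dissection and a difference in granule neurons cannot be told apart.

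Of Slc17a7-detected nuclei, the granule share was 6.102%, 1.56%, 1.29% and 1.99% under ANGPT2 AAV and 6.996%, 1.81% and 1.27% under control AAV. The exact 95% binomial intervals were 5.35% to 6.93% for the highest ANGPT2 AAV library and 6.28% to 7.77% for the highest control AAV library, and they cover counting error only. Depth differed between batches, with medians of 11512, 11522, 7156 and 4792 UMIs per granule nucleus under ANGPT2 AAV and 15138, 11561 and 3786 under control AAV. In summed UMIs, the granule nuclei gave 139600 to 2611872 per ANGPT2 AAV library and 92091 to 5444714 per control AAV library. A gene with 0 UMIs could therefore have a level of up to 21.5 CPM in the ANGPT2 male of batch 2 and 32.6 CPM in the control male of batch 2, taking 3 counts as the limit. The same limit was 0.551 CPM in the control male of batch 1.

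**Figure D1:**
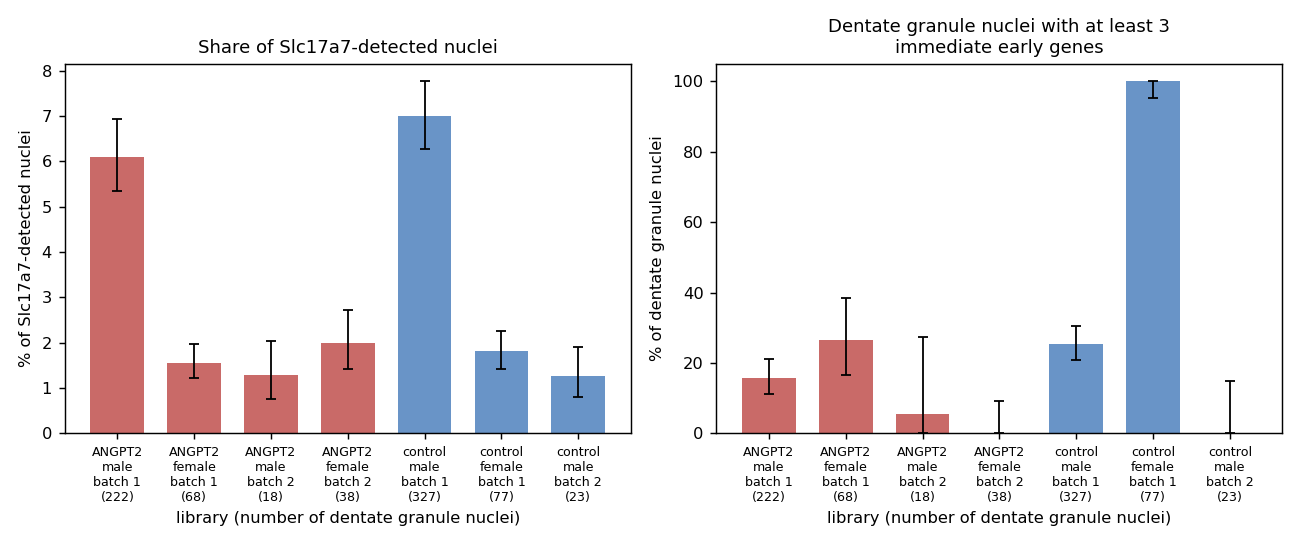
Granule nuclei per library, with ANGPT2 AAV in red and control AAV in blue; the left panel gives their share of Slc17a7-detected nuclei and the right panel the share of granule nuclei with at least 3 of 20 immediate early genes, both in percent with exact 95% binomial intervals, and the numbers in brackets are granule nuclei. The left shares range from 1.29% to 6.102% under ANGPT2 AAV and from 1.27% to 6.996% under control AAV, and on the right the control female of batch 1 stands at 100% while the other libraries lie between 0% and 26.5%.

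Many nuclei lay close to the edge of the rule. Exactly 4 markers were detected in 340 of the 773 granule nuclei, 5 in 272, 6 in 143 and all 7 in 18. The lowest summed level among granule nuclei was 10.0 to 13.7 UMIs per 10000 per library, and the highest among nuclei with enough markers but too low a level was 6.05 to 10.0. A further 406 Slc17a7 nuclei reached the summed level with exactly 3 markers and so stayed just outside. They numbered 55, 21, 9 and 61 in the ANGPT2 AAV libraries and 55, 173 and 32 in the control AAV libraries. Such nuclei outnumbered all the granule nuclei that met the rule in the ANGPT2 female of batch 2 (61 against 38), the control female of batch 1 (173 against 77) and the control male of batch 2 (32 against 23). In the control female of batch 1, 171 of those 173 also had at least 3 immediate early genes. With at least 3 markers required, the share was 1.55% ± 1.43 under ANGPT2 AAV (SD, n = 4) and 2.69% ± 1.89 under control AAV (SD, n = 3), with an exact permutation p of 0.371.

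Granule identity genes that the rule did not use were also high in these nuclei. The 18 identity genes outside the rule, among them Calb1, the guanine nucleotide exchange factor Dock10, the transcription factor Rfx3 and the synaptic adhesion protein Lrrtm4, summed to 17553 to 21454 CPM in ANGPT2 AAV and 10728 to 19948 CPM in control AAV granule nuclei. In other Slc17a7 nuclei, which had Slc17a7 and Sv2b, at most 1 rule marker and neither Gad1 nor Gad2, they summed to 3763 to 5272 CPM. Of the rule markers, Prox1 ranged from 355 to 462 CPM under ANGPT2 AAV and from 354 to 536 CPM under control AAV. Chst9, a sulfotransferase gene, lay between 371 and 630 CPM under ANGPT2 AAV, against 394, 133 and 521 CPM under control AAV. That lowest value belonged to the control female of batch 1, which was below the other 6 libraries for 5 of the 7 rule markers and above them for Prox1.

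Markers of other cells varied in level. Thalamic excitatory markers summed to 623 to 999 CPM under ANGPT2 AAV and 598 to 706 CPM under control AAV, against 249 to 788 CPM in other Slc17a7 nuclei. The most abundant of these 6 markers in granule nuclei was Ntng1, followed by Tcf7l2 and Slc17a6. Cortical excitatory markers summed to 336 to 458 CPM under ANGPT2 AAV and 261 to 450 CPM under control AAV, against 1337 to 1585 CPM in other Slc17a7 nuclei. CA1 pyramidal markers summed to 73.0 to 100.3 CPM under ANGPT2 AAV and 76.0 to 105 CPM under control AAV, against 634 to 795 CPM in other Slc17a7 nuclei. Endothelial and mural markers summed to at most 9.74 CPM, and of these Flt1 was at 0 in 3 ANGPT2 AAV libraries and 2 control AAV libraries. Immature granule markers summed to 68.2 to 122 CPM under ANGPT2 AAV and 111 to 130 CPM under control AAV, and Igfbpl1, Draxin and Eomes were at 0 in every library.

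Gad1, which encodes a GABA-synthesizing enzyme that granule neurons can make at low levels, was detected in 41.0%, 38.2%, 44.4% and 18.4% of granule nuclei under ANGPT2 AAV and in 50.5%, 51.9% and 13.04% under control AAV. In the other Slc17a7 nuclei, before nuclei with Gad1 or Gad2 were left out, the shares were 4.56% to 17.8% at median depths of 6482 to 13530 UMIs under ANGPT2 AAV and 9.80% to 12.7% at 4600 to 16999.5 UMIs under control AAV. Slc32a1, the vesicular GABA transporter gene, was detected in 0% to 5.56% of granule nuclei. Adarb2, a gene used to mark interneurons, was at 2278 to 2843 CPM under ANGPT2 AAV and 1091 to 2319.5 CPM under control AAV, against 123 to 487 CPM in other Slc17a7 nuclei.

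Ttr, the choroid plexus gene for transthyretin, reached 538 CPM in the ANGPT2 female of batch 1, against 19.5 to 57.4 CPM in the other ANGPT2 AAV libraries and 72.7 to 163 CPM under control AAV. Oligodendrocyte markers summed to 437 to 828 CPM under ANGPT2 AAV and 738 to 899 CPM under control AAV, of which St18 gave 278 to 392 CPM and 304 to 441 CPM. Simulated-doublet calls marked 92 of the 773 granule nuclei, 22 in the male and 7 in the female of batch 1 under ANGPT2 AAV, 52 in the male and 11 in the female of batch 1 under control AAV, and 0 in batch 2. The part of such foreign transcripts in the results below was not tested, and the counts of called genes without the marked nuclei are given in the closing section.

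The immediate early genes gave the clearest view of the control female of batch 1. Nr4a1, an orphan nuclear receptor (chromosome 15, 101254269 to 101274795, plus strand, GRCm38), had 4.59, 8.05, 14.3 and 9.74 CPM in the ANGPT2 AAV libraries, against 3.86, 280 and 10.9 CPM in the control AAV libraries. The ANGPT2 AAV libraries and both control males shared 1 low range, and the control female of batch 1 was 19.6 times the highest of them. That highest value, 14.3 CPM in the ANGPT2 male of batch 2, lay below the 21.5 CPM that 3 counts give in that library, so the ratio is imprecise. Nr4a1 UMIs were found in 92.2% of granule nuclei of the control female of batch 1 and in 4.35% to 11.1% elsewhere.

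Arc, a synaptic capsid-like protein that trims AMPA receptors, had 5.36, 9.20, 7.16 and 0 CPM under ANGPT2 AAV and 5.33, 169 and 21.7 CPM under control AAV. Fos, a subunit of the AP-1 transcription factor, had 2.30, 3.45, 0 and 4.87 CPM under ANGPT2 AAV and 2.20, 106 and 0 CPM under control AAV. Npas4, a neuron-specific early transcription factor, had 1.53, 1.15, 0 and 0 CPM under ANGPT2 AAV and 0.367, 75.9 and 0 CPM under control AAV. For all 3 genes the control female of batch 1 stood alone, and the other libraries of both groups overlapped at 21.7 CPM or less. The promoter windows of Fos and Npas4 are among those printed above.

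Across the list, 17 of the 20 immediate early genes were highest in the control female of batch 1, and Jun, Egr2 and Klf4 were not. A low-count filter let 5 of the 20 enter the test of ANGPT2 AAV against control AAV, Jun, Jund, Egr1, Egr3 and Btg2, and 4 of these 5 were highest in that library. Over all 8186 genes tested in granule nuclei, 13.7% were highest there. In other Slc17a7 nuclei, 17 of the 20 were highest in this library too, but the share over all genes was not computed for those nuclei. The list there summed to 782 CPM, against 211 to 308 CPM in ANGPT2 AAV libraries and 216 and 382 CPM in the control males. In granule nuclei the control female of batch 1 was at 1732 CPM, against 107 to 155 CPM under ANGPT2 AAV and 139 and 109 CPM in the control males.

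Markers of other cells that moved with this library were measured in the same nuclei. Of 7 microglial markers 6 were highest in the control female of batch 1. Only 3 of the 7 passed the low-count filter, and 2 of those 3 were highest there, against 13.7% of all genes tested. The 7 markers summed to 21.5 to 73.6 CPM under ANGPT2 AAV and 90.4, 123 and 54.3 CPM under control AAV. Tyrobp, Cx3cr1 and Csf1r were among these 6, and P2ry12, also a microglial marker and among the most abundant of the list, was not. Cx3cr1 reached 14.1 CPM in the control female of batch 1, against 0 to 8.81 CPM in the other 6 libraries. A gene with 0 UMIs could reach 14.6 to 32.6 CPM in batch 2 libraries, so a 0 there cannot be ranked below 14.1 CPM. Markers of CA3 pyramidal and mossy cells summed to 403 to 436 CPM under ANGPT2 AAV and 431, 848 and 337 CPM under control AAV, most of it from Grik4, a kainate receptor subunit, at 643 CPM in the control female of batch 1. The part of either marker list in the activity gene values was not tested.

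The 5 tested genes can be given in the order of their size of change. Btg2, an antiproliferative gene, had a log2 change of -1.84 (SE 1.05) and Egr1, a zinc finger transcription factor gene, -1.65 (SE 0.94), and neither passed the low-count filter without the control female of batch 1. Egr3, of the same family, had -1.16 (SE 1.04) with that library and 1.01 (SE 0.54) without it. Jun and Jund, which encode AP-1 subunits, had -0.62 (SE 0.32) and -0.47 (SE 0.43), and -0.65 (SE 0.30) and -0.12 (SE 0.39) without it. The adjusted p was 1 for all 5 in edgeR. Jun stood apart from the pattern of the list, with 29.1, 21.9, 7.16 and 14.6 CPM under ANGPT2 AAV and 40.6, 29.99 and 21.7 CPM under control AAV, and it was highest in the control male of batch 1.

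The share of granule nuclei with at least 3 immediate early genes was 15.8%, 26.5%, 5.56% and 0% under ANGPT2 AAV and 25.4%, 100% and 0% under control AAV. After each nucleus was thinned to 2000 UMIs, which left out 1 granule nucleus of the ANGPT2 male of batch 1, these shares were 0% in all 4 ANGPT2 AAV libraries, against 0.917%, 42.9% and 0% under control AAV. Thinned other Slc17a7 nuclei gave 1.72% to 4.37% under ANGPT2 AAV and 1.02%, 16.0% and 5.36% under control AAV. The mean share without thinning was 11.9% ± 11.7 under ANGPT2 AAV (SD, n = 4) and 41.8% ± 52.0 under control AAV (SD, n = 3), a difference of -29.8 points (exact two-sided permutation p = 0.371). Leaving out the control female of batch 1 gave a difference of -0.743 points (exact permutation p = 1). Within batch 1 the means were 21.1% for ANGPT2 AAV and 62.7% for control AAV, and within batch 2 they were 2.78% and 0%.

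**Figure D2:**
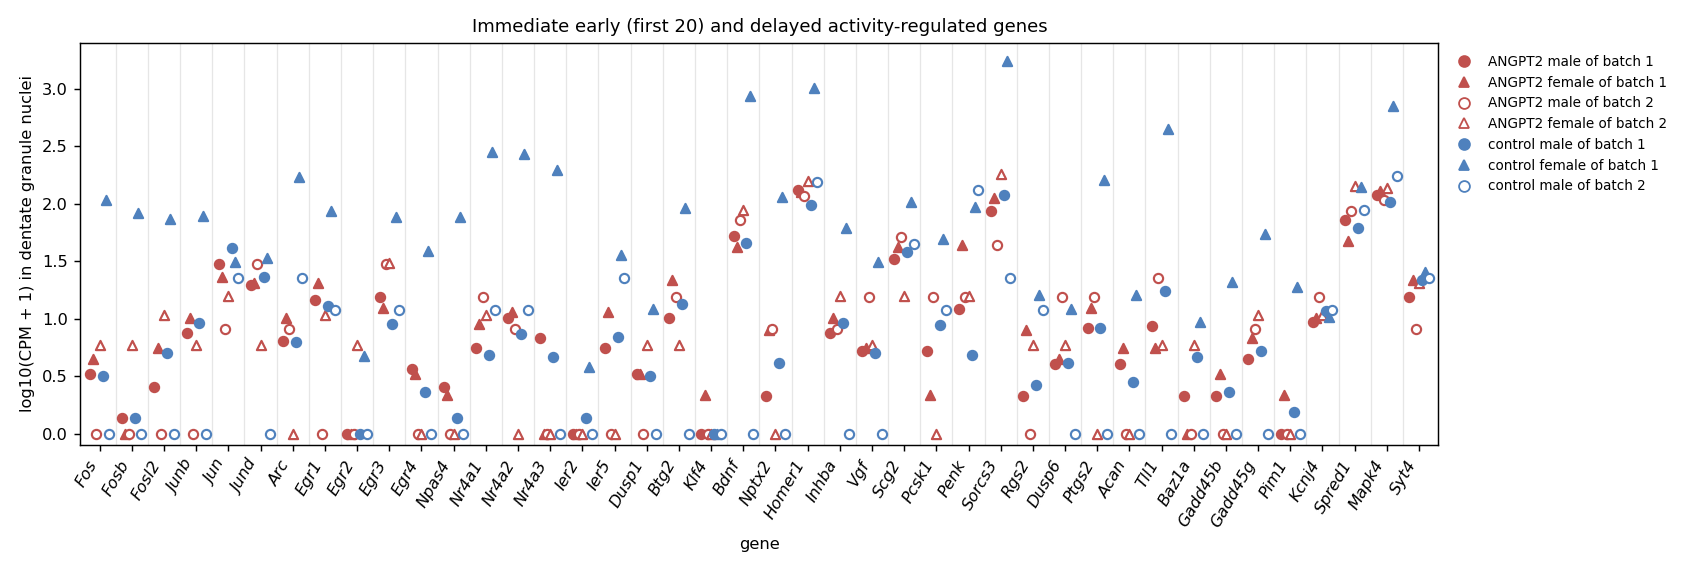
Level of each of 20 immediate early and 22 delayed activity-regulated genes in granule nuclei, as log10(CPM + 1), with 1 point per library; red is ANGPT2 AAV and blue is control AAV, circles are males and triangles females, and filled symbols are batch 1. The filled blue triangle, the control female of batch 1, is the highest point for 17 of the first 20 genes and 18 of the other 22.

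Most delayed activity-regulated genes were also highest in the same library. Bdnf, which encodes brain-derived neurotrophic factor (chromosome 2, 109674700 to 109727007, plus strand), had 50.9, 41.4, 71.6 and 87.6 CPM under ANGPT2 AAV and 44.6, 859 and 0 CPM under control AAV. Sorcs3, a sorting receptor gene (chromosome 19, 48206025 to 48805505, plus strand), had 85.4, 112, 43.0 and 180.1 CPM under ANGPT2 AAV and 118, 1730 and 21.7 CPM under control AAV. Homer1, a postsynaptic scaffold gene, had 130.2, 127, 115 and 156 CPM under ANGPT2 AAV and 95.7, 1009 and 152 CPM under control AAV. Each of these genes was higher in the control female of batch 1 than in any other library, while ANGPT2 AAV libraries and control males overlapped.

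Of the 22 delayed genes, 18 were highest in the control female of batch 1 and Penk, Dusp6, Kcnj4 and Spred1 were not. The 10 that were tested all had lower fitted values under ANGPT2 AAV, with a median log2 change of -1.70, against a median of -0.00 over all genes, and 0 of the 10 passed the threshold of an adjusted p under 0.05, as did 0% of all genes. Of these 10, 8 were highest in the control female of batch 1, against 13.7% of all genes tested. Without that library the median over the 8 that remained testable was 0.22. For Bdnf the log2 change was -2.66 (SE 1.43) with all libraries and 0.39 (SE 0.30) without that library. For Sorcs3 it was -2.76 (SE 1.37) and 0.04 (SE 0.45), and for Homer1 -1.83 (SE 0.95) and 0.39 (SE 0.22), with an adjusted p of 1 for each in edgeR's quasi-likelihood test.

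Tll1, which encodes a tolloid-like metalloprotease, had 7.66, 4.60, 21.5 and 4.87 CPM under ANGPT2 AAV and 16.5, 442 and 0 CPM under control AAV. Its log2 change was -4.71 (SE 1.77, adjusted p = 1 in edgeR), and without the control female of batch 1 it did not pass the low-count filter. Npy, the gene of neuropeptide Y, had 4.98, 8.05, 0 and 0 CPM under ANGPT2 AAV and 3.49, 58.1 and 0 CPM under control AAV. It was detected in 37.7% of granule nuclei of the control female of batch 1 and in 0% to 5.86% elsewhere.

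Cholesterol synthesis genes were also high in the granule nuclei of that library. Their summed level was 202, 255, 165 and 161 CPM under ANGPT2 AAV and 213, 723 and 239 CPM under control AAV, with the control female of batch 1 far above the rest. In other Slc17a7 nuclei the list summed to 413 to 728 CPM over the libraries, a range that holds the 723 CPM. Of 15 listed genes, 11 were highest in the control female of batch 1 in granule nuclei. In other Slc17a7 nuclei 3 were, and the share over all genes was not computed there. All 9 tested members had lower fitted values under ANGPT2 AAV, with a median log2 change of -0.86, and 0 passed. Of these 9, 7 were highest in the control female of batch 1, against 13.7% of all genes tested. The part of that library in their direction was not tested. Without that library 5 members were testable, 3 higher and 2 lower, with a median of 0.19, so the medians cover different sets.

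Identity genes of the granule neuron were lower in the same library. Calb1 (chromosome 4, 15881264 to 15908064, plus strand), the calbindin gene, had 157, 114, 86.0 and 209 CPM under ANGPT2 AAV and 149, 11.2 and 228 CPM under control AAV. The control female of batch 1 lay far below the rest, and the other libraries of both groups overlapped. Calb1 was detected in 50.0% to 72.5% of granule nuclei under ANGPT2 AAV, against 76.1%, 7.79% and 60.9% under control AAV. In the nuclei just outside the rule, with exactly 3 markers, it was at 4.68 CPM in the control female of batch 1 and at 87.9 to 205 CPM in the other 6 libraries. In other Slc17a7 nuclei Calb1 was at 24.1 to 34.0 CPM under ANGPT2 AAV and 27.6, 17.6 and 26.1 CPM under control AAV.

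Igfbp5, which encodes an insulin-like growth factor binding protein, had 63.9, 56.4, 71.6 and 48.7 CPM under ANGPT2 AAV and 36.2, 4.69 and 54.3 CPM under control AAV. Dock10 had 1219, 1110, 1196 and 1237 CPM under ANGPT2 AAV and 1158, 595 and 1151 CPM under control AAV. Ntf3, the neurotrophin-3 gene, had 83.5, 72.5, 7.16 and 63.3 CPM under ANGPT2 AAV and 59.3, 0 and 86.9 CPM under control AAV. In the control female of batch 1, where no Ntf3 UMI was found, the level could still have been up to 2.81 CPM.

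Of the 18 identity genes, 13 were lowest in the control female of batch 1 and 1, Pdzd2, a PDZ domain gene, was highest. Over all tested genes 20.6% were lowest there. Of 17 tested, 15 had higher fitted values under ANGPT2 AAV and 2 lower, with a median log2 change of 0.25 and 0 past the threshold. Over all genes tested 4063 of 8186 were higher. Without the control female of batch 1 the median of the identity genes was 0.11, with 12 of 16 higher, against 3648 of the 7075 genes tested in both fits. The smallest unadjusted p of the list belonged to Slc4a4, a sodium bicarbonate cotransporter gene, with 1406, 1333, 1676 and 1348 CPM under ANGPT2 AAV and 1153, 636 and 1173 CPM under control AAV. All 4 ANGPT2 AAV libraries lay above every control library for Slc4a4, and its log2 change came to 0.60 (SE 0.22, edgeR adjusted p = 1) and 0.39 (SE 0.19) without the control female of batch 1. For Igfbp5 the change was 1.25 (SE 0.49) and 0.75 (SE 0.23), and for Calb1 it was 0.48 (SE 0.89) and -0.14 (SE 0.26), so the sign of Calb1 turned.

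**Figure D3:**
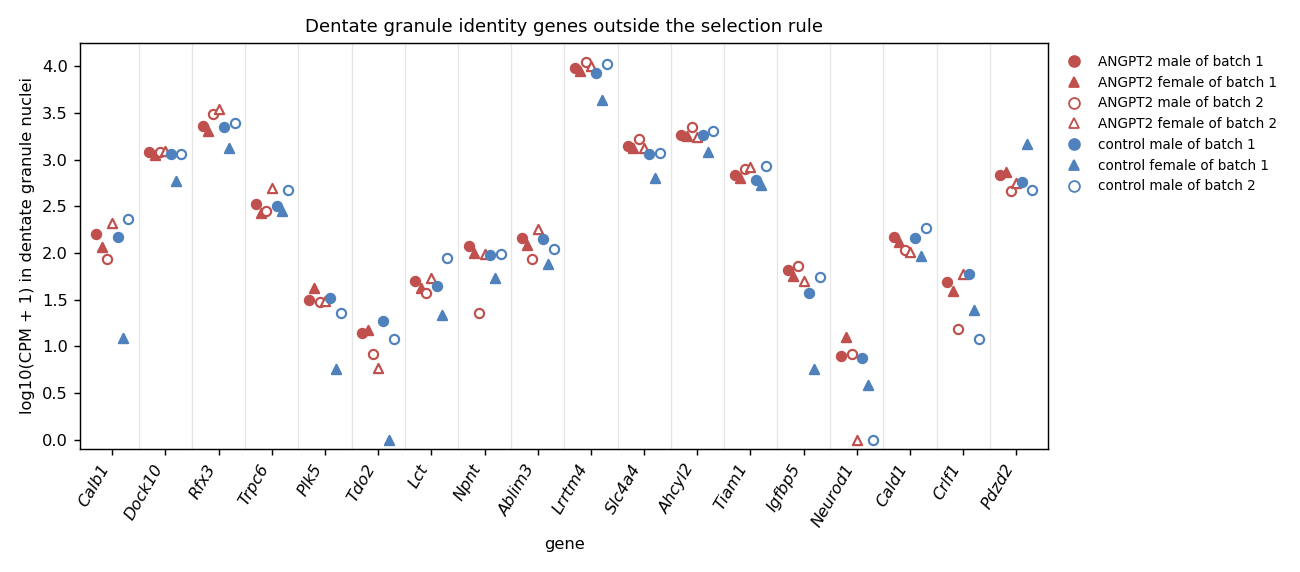
Level of 18 granule identity genes outside the selection rule, as log10(CPM + 1) in granule nuclei, with 1 point per library (red, ANGPT2 AAV; blue, control AAV; circles, males; triangles, females; filled, batch 1). The control female of batch 1, the filled blue triangle, is the lowest point for 13 of the 18 genes, with Calb1 at 11.2 CPM and Igfbp5 at 4.69 CPM, and the highest for Pdzd2.

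Of the genes of synapse and excitability, several were far from the other libraries in the control female of batch 1. Nrxn3, a presynaptic adhesion gene, had 1622, 1355, 1698 and 1227 CPM under ANGPT2 AAV and 1593, 9977 and 1379 CPM under control AAV. In other Slc17a7 nuclei it was at 5725 to 7469 CPM under ANGPT2 AAV and 6149, 7539 and 6433 CPM under control AAV, so its level in granule nuclei of the control female of batch 1 was above that of other Slc17a7 nuclei and in the other 6 libraries below it. Sv2b, a synaptic vesicle gene, was at 7.16 to 28.8 CPM under ANGPT2 AAV and at 33.1, 136 and 21.7 CPM under control AAV, against 505 CPM or more in other Slc17a7 nuclei, which were chosen for its detection. Nrg1, the neuregulin-1 gene, was at 401 to 923 CPM under ANGPT2 AAV and at 958, 3720 and 652 CPM under control AAV.

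Among receptors, Grik3, a kainate receptor subunit, had 111, 128, 107 and 112 CPM under ANGPT2 AAV and 93.3, 26.2 and 97.7 CPM under control AAV. The groups did not overlap, and the log2 change was 0.81 (SE 0.33, adjusted p = 1 in edgeR), with 0.36 (SE 0.21) without the control female of batch 1. Of 18 AMPA, NMDA, kainate and metabotropic receptor genes tested, 10 were higher and 8 lower, with a median log2 change of 0.04, and leaving out the control female of batch 1 gave 14 and 4, with a median of 0.18. Of 10 GABA-A receptor subunits 7 were higher in both fits, with a median of 0.23 with that library and 0.15 without it. Of 28 potassium, sodium and HCN channel genes 16 were higher, and 17 without that library, with medians of 0.02 and 0.05. Of 24 calcium buffering and signalling genes 18 were higher in both fits, with medians of 0.18 and 0.12. Over all genes tested 4063 of 8186 were higher, and without that library 3648 of the 7075 genes tested in both fits. In the control female of batch 1, 12 of the 24 calcium genes, 9 of the 28 channel genes and 3 of the 20 listed glutamate receptor genes were lowest, against 20.6% of all genes tested. Those highest there were 3, 5 and 5, against 13.7% of all genes tested. None of these genes passed the threshold with all 7 libraries and the low-count filter.

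Angpt2, Angpt4, Tek and Tie1 were sparse in granule nuclei, but the full angiopoietin and VEGF list was not. It summed to 638 to 895 CPM under ANGPT2 AAV and 699 to 793 CPM under control AAV, against 316 to 456 CPM in other Slc17a7 nuclei. Angpt2 had 0.383, 2.30, 0 and 0 CPM under ANGPT2 AAV and 0.918, 0.937 and 0 CPM under control AAV, counted on the mouse gene, and a vector transcript that does not map to it would not be counted. Tek, the receptor gene, had at most 2.30 CPM under ANGPT2 AAV and 1.87 CPM under control AAV, and Tie1 and Angpt4 were at 0 in every library. Of 16 listed angiopoietin and VEGF genes 6 were tested, with log2 changes from -0.52 for Itgb1 (SE 0.27), an integrin subunit gene, to 0.68 for Angpt1 (SE 0.54), the gene of the related ligand angiopoietin-1. Without the control female of batch 1 these were -0.31 and 0.34. Over the libraries left out in turn, Angpt1 ranged between that 0.34 and 1.72, the value when the control male of batch 1 was dropped, with no value where it was not tested. The 6 genes were 2 higher and 4 lower with all libraries, and 4 higher and 2 lower without the control female of batch 1. The semaphorin and VEGF co-receptor Nrp1 had 385 to 587 CPM under ANGPT2 AAV and 448 to 510 CPM under control AAV, and these ranges overlapped.

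No gene passed the threshold between ANGPT2 AAV and control AAV in granule nuclei with all 7 libraries and the low-count filter. Summed counts of 8186 genes were compared with edgeR's quasi-likelihood test, and 0 genes (0%) had an adjusted p under 0.05, while 187 (2.28%) had an unadjusted p under 0.05, 67 of them higher (0.818%) and 120 lower (1.47%). DESeq2 called 0 genes as well, with 92 at an unadjusted p under 0.05. Without the control female of batch 1, 7111 genes were tested, of which 0 (0%) passed and 126 (1.77%) had an unadjusted p under 0.05, 57 higher (0.802%) and 69 lower (0.97%). Without the control male of batch 1, which held most of the control nuclei, 114 genes passed, 35 higher and 79 lower, and of the genes named here Igfbp5, Grik3 and Sntg2 were among the higher and Btg2, Egr1, Egr3, Sdk1, Sergef, Chrm3, Lrmda, Rtn4rl1, Khdrbs3, Capn15 and Gm27000 among the lower. The comparison then set 4 ANGPT2 AAV libraries against the control female of batch 1 and the control male of batch 2.

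Each ANGPT2 AAV library lay above every control library for 153 of the 8186 genes (1.87%) and below for 184 (2.25%). The genes described next are the 10 with the smallest unadjusted p in each direction. Their values were chosen for that difference, and none passed with all 7 libraries and the low-count filter, where the smallest adjusted p of any gene was 1 after rounding. With no low-count filter 39 of 20714 genes passed in edgeR, among them Chrm3 (adjusted p = 0.000107), Sdk1 (adjusted p = 0.00101), Neat1 (adjusted p = 0.0238) and Sergef (adjusted p = 0.0259).

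Strn, which encodes striatin, a scaffold of a phosphatase complex (chromosome 17, 78649913 to 78737196, minus strand), had 129, 136, 165 and 151 CPM under ANGPT2 AAV, against 65.6, 86.2 and 86.9 CPM under control AAV. The groups did not overlap. The log2 change was 0.87 (SE 0.23, unadjusted p = 0.00191 in edgeR), and leaving out the control female of batch 1 gave 1.09 (SE 0.23, adjusted p = 0.356 in edgeR), the smallest adjusted p in that fit. In other Slc17a7 nuclei Strn was at 79.1 to 87.8 CPM under ANGPT2 AAV and 65.7 to 94.96 CPM under control AAV, where the groups overlapped.

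Gabra5, a GABA-A receptor subunit linked to tonic inhibition in the hippocampus, had 205, 207, 251 and 243 CPM under ANGPT2 AAV and 159, 122 and 174 CPM under control AAV, again without overlap. Its log2 change was 0.62 (SE 0.20) with all libraries and 0.51 (SE 0.21) without the control female of batch 1. Foxp1, a forkhead transcription factor gene, had 388, 420, 580 and 428 CPM under ANGPT2 AAV and 322, 187 and 337 CPM under control AAV, a log2 change of 0.74 (SE 0.23) and 0.52 (SE 0.21). The other higher genes were Gm41804, Gm48530 and Gm10649, which carry only provisional names, Sntg2, a syntrophin gene, Fam13a, Akain1, which encodes an inhibitor of protein kinase A anchoring, and the receptor gene Gpr176. Their log2 changes ran from 0.73 for Gm10649 to 1.30 for Gm41804.

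Among the lower genes, Sdk1, which encodes the synaptic adhesion protein sidekick-1 (chromosome 5, 141241490 to 142215586, plus strand), had 41.0, 48.3, 28.7 and 43.8 CPM under ANGPT2 AAV and 77.0, 171 and 86.9 CPM under control AAV. The groups did not overlap, and the log2 change was -1.51 (SE 0.33) with all libraries and -0.83 (SE 0.22) without the control female of batch 1. Over every alternative that gave a value, the Sdk1 change ranged from -1.92 to -0.24. Chrm3, the muscarinic M3 receptor gene, had 33.3, 25.3, 43.0 and 24.3 CPM under ANGPT2 AAV and 65.0, 168 and 32.6 CPM under control AAV, a log2 change of -1.79 (SE 0.49) and -0.97 (SE 0.25), and -0.36 when called doublets were left out. Here the control male of batch 2 lay within the ANGPT2 AAV range. Sergef, a guanine nucleotide exchange factor gene, had 69.7, 73.6, 57.3 and 58.4 CPM under ANGPT2 AAV and 90.5, 187 and 163 CPM under control AAV, with a log2 change of -1.12 (SE 0.28) and -0.50 (SE 0.23). Its range over the alternatives was -1.50 to -0.33.

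Neat1, the long non-coding RNA of paraspeckles, had 18.4, 21.9, 7.16 and 0 CPM under ANGPT2 AAV and 42.6, 60.9 and 10.9 CPM under control AAV, a log2 change of -1.55 (SE 0.44) and -1.17 (SE 0.35). The batch 2 values rest on 1 UMI in each male and 0 in the female. The remaining lower genes were Lrmda, Arhgap23, Rtn4rl1, Gm27000, Khdrbs3 and Capn15, with log2 changes from -1.58 for Lrmda to -0.80 for Rtn4rl1. Without the control female of batch 1 they lay between -1.23 for Lrmda and -0.39 for Rtn4rl1. Over every alternative that gave a value, Rtn4rl1 ranged from -1.06 to -0.085. Khdrbs3, which encodes an RNA-binding protein, had -1.02 with all nuclei and -0.17 when called doublets were left out.

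**Figure D4:**
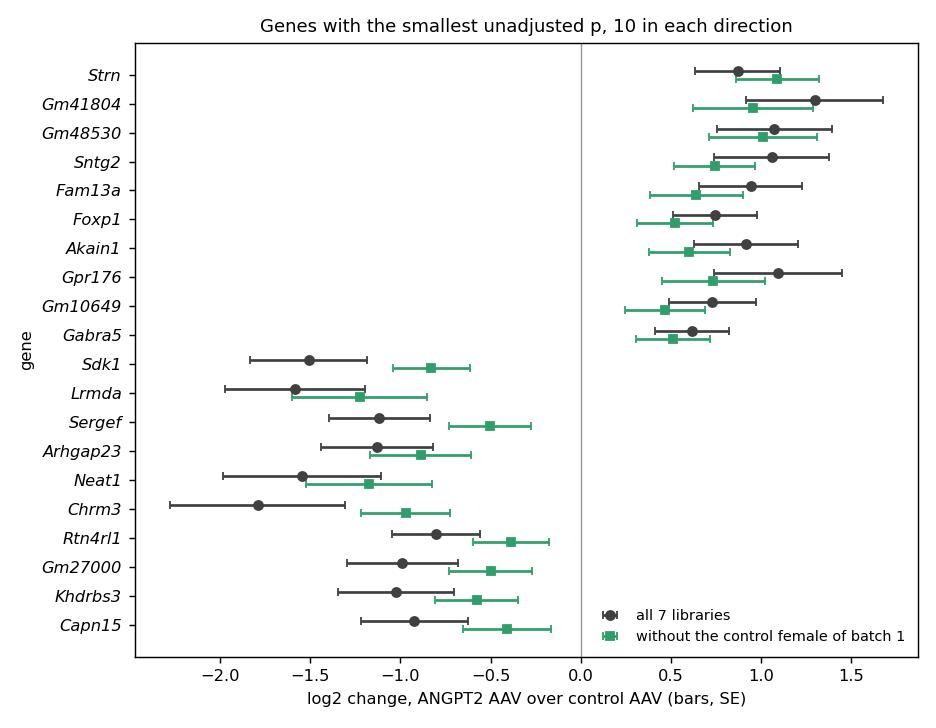
log2 change of the 20 genes with the smallest unadjusted p (10 higher, then 10 lower), ANGPT2 AAV over control AAV, with standard errors; dark circles use all 7 libraries and green squares leave out the control female of batch 1. Of the 20, Strn is the gene whose value is larger without that library (1.09 against 0.87), and Chrm3 makes the widest step towards 0 (-0.97 against -1.79).

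Further lists of stress, clock and disease genes held no member that passed the threshold with all 7 libraries and the low-count filter. App, which encodes the amyloid precursor, had 414 to 444 CPM under ANGPT2 AAV and 437 to 467 CPM under control AAV, a pair of ranges that overlapped. Of 15 Alzheimer and amyloid genes tested 4 were higher and 11 lower, with a median log2 change of -0.15, and leaving out the control female of batch 1 gave 7 higher and 7 lower of 14, with a median of -0.00. Heat shock and unfolded protein response genes had 2 higher and 7 lower of 9 tested, with a median of -0.33, and -0.11 without the control female of batch 1. Hypoxia response genes had 3 higher and 3 lower of 6 tested in both fits. Ribosomal protein genes had 34 higher and 39 lower of 73 tested, and 40 higher and 21 lower of 61 without the control female of batch 1. Interferon and antigen presentation genes were mostly too sparse, with 1 of 15 tested. Circadian clock genes had 7 higher and 9 lower of 16 tested, and 5 higher and 8 lower of 13 without that library. Glucocorticoid response genes had 3 higher and 5 lower of 8 tested, and 2 higher and 4 lower of 6 without it.

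Oligodendrocyte markers, whose sums are given above, were also compared between the groups in granule nuclei. All 6 tested oligodendrocyte markers had lower fitted values under ANGPT2 AAV, with a median of -0.49 and 0 past the threshold. Without the control female of batch 1 all 4 that could be tested were lower, with a median of -0.39, and the source of these transcripts was not tested.

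**Figure D5:**
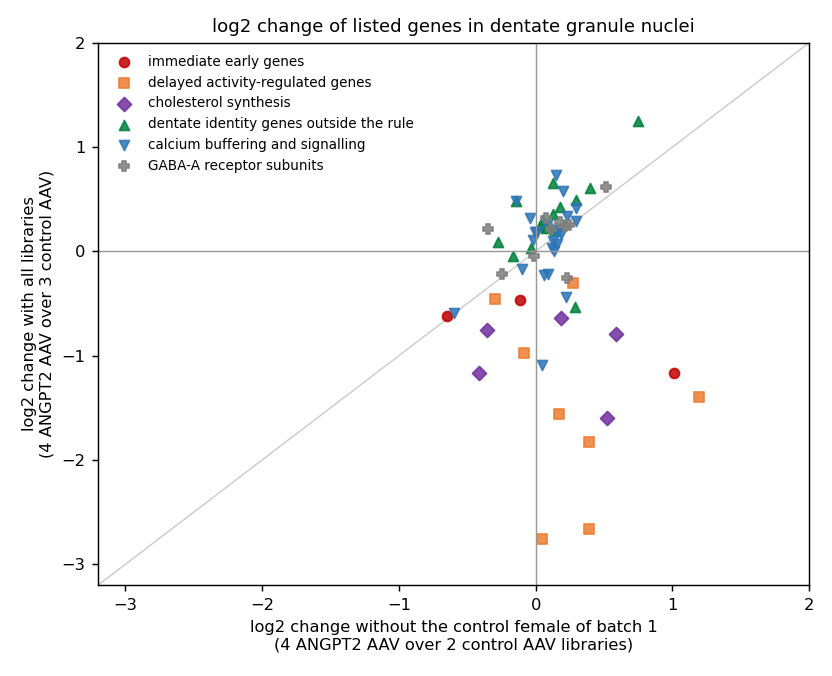
log2 change, ANGPT2 AAV over control AAV, of members of 6 gene lists in granule nuclei. All libraries are on the vertical axis, the horizontal axis leaves out the control female of batch 1, and the diagonal marks equal values. Only members tested in both fits are shown, so genes such as Btg2, Egr1 and Tll1 are missing. Delayed activity-regulated genes such as Bdnf (-2.66 and 0.39) and Sorcs3 (-2.76 and 0.04) lie far below the diagonal, and identity genes such as Igfbp5 (1.25 and 0.75) lie above it.

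Whether the ANGPT2 AAV difference of a gene was particular to granule nuclei was tested against other Slc17a7 nuclei of the same libraries, with each library as a block. Of 13778 genes 1 passed (0.00726%), and without the control female of batch 1, 19 of 14202 passed (0.134%). The count was 374 without the control male of batch 1, 18 without the ANGPT2 male of batch 1, 9 without the control male of batch 2, 5 without the ANGPT2 female of batch 1 and 0 without either ANGPT2 library of batch 2. The gene that passed was Hs3st2, a heparan sulfate sulfotransferase gene (chromosome 7, 121391859 to 121501770, plus strand). Granule nuclei held 4, 1, 0 and 0 UMIs of Hs3st2 under ANGPT2 AAV and 29, 35 and 0 UMIs under control AAV. Other Slc17a7 nuclei had 142 to 184 CPM under ANGPT2 AAV and 91.3, 262 and 181 CPM under control AAV.

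The difference between the Hs3st2 effects was -3.29 on the log2 scale (SE 0.55, adjusted p = 0.0111 in edgeR), and -2.71 when the control female of batch 1 was left out (edgeR adjusted p = 0.0211). Leaving out the ANGPT2 male of batch 2 gave -3.21 (edgeR adjusted p = 0.19), and leaving out the ANGPT2 female of that batch gave -3.19 (edgeR adjusted p = 0.133), so neither passed. It rests on few UMIs in granule nuclei, with the 3 batch 2 libraries at 0, and the other Slc17a7 nuclei express the gene far more strongly. Pld5, a phospholipase D family gene, had 7, 1, 1 and 0 UMIs under ANGPT2 AAV and 82, 5 and 0 UMIs under control AAV. Relative to the summed UMIs of each library, Hs3st2 was highest in the control female of batch 1 and Pld5 in the control male of batch 1. The Pld5 difference was -2.63 (SE 0.52, adjusted p = 0.0536 in edgeR). It was -2.88 when the control female of batch 1 was left out (edgeR adjusted p = 2.53e-05), where the control male of batch 1 holds all of the control UMIs.

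The next genes by p were Mir670hg (-1.76), Megf11 (-1.83) and Sdk1 (-1.23) among the lower and Gm10649 (1.05), Fgfr1 (1.35), Trpc4 (0.92) and Maml2 (0.80) among the higher, none of which passed with all libraries and the low-count filter. With no low-count filter 32 of 26261 genes passed in edgeR, and these 7 and Pld5 were among them, with adjusted p from 0.000666 for Pld5 to 0.0449 for Maml2. Sdk1 passed without the control female of batch 1, with -1.27 (adjusted p = 0.00175 in edgeR). In other Slc17a7 nuclei Sdk1 was at 155 to 275 CPM under ANGPT2 AAV and 122 to 343 CPM under control AAV, and these ranges overlapped. Hmcn1, also among the higher 5, had 9, 1, 1 and 0 UMIs in granule nuclei under ANGPT2 AAV and 0 in all 3 control AAV libraries, too few for a fold.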

How the data were processed

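Single-nucleus RNA-seq libraries of 7 mice were used as raw counts of UMIs per gene and barcode, deposited by the authors as 10x matrices. Cell Ranger 6.1.2 and the mm10 (GRCm38) build are named in the submitters' processing notes. Barcodes with at least 300 genes and under 5% mitochondrial UMIs were kept (58169 of 58286). No doublets were removed. Doublet calls from simulated doublets, at an assumed 0.8% per 1000 nuclei, served as an alternative. No granule barcode occurred in more than 1 library. Each mouse is 1 library, and p-values measure the spread between mice.

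Counts were summed per library over granule nuclei, in libraries with at least 10 of them, and tested with edgeR 4.0.16 in R 4.3.3 (quasi-likelihood, TMM factors, filterByExpr with a minimum count of 10 and a minimum total of 15), with Benjamini-Hochberg adjustment over all genes tested and a threshold of 0.05. CPM are counts of the summed nuclei scaled to a common total, without TMM. Alternatives were DESeq2 1.42.0, other scaling and filters, batch and sex terms, each library left out, and other marker numbers, depths and doublet handling. The batch number in the labels paired libraries of both groups. Deviations from group means correlated with a median r of 0.0606 over 6 such pairs of the same batch (0.0148 to 0.132) and -0.0577 over 6 pairs of different batches. Shares were compared by exact permutation, and scripts ran in Python 3.11.15 with scipy 1.17.1, pandas 2.3.3 and scikit-learn 1.9.0. The edgeR test was also run on simulated counts, with 100 genes changed 2-fold and 100 changed 4-fold. With all 7 libraries it recovered 30 and 95 of these, with 18 false calls. Without the control female of batch 1 it recovered 65 and 97, with 15 false calls. Many 2-fold changes could thus be missed with all 7 libraries. Apart from the set changes, every simulated library shared the same mean levels, so none stood apart as the control female of batch 1 did. The recovered numbers do not cover such a library, and 4-fold changes could also be missed in the real counts.

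The members, gene lists and tests were chosen with earlier results of these data known. Genes named by rule were the tested immediate early, identity and angiopoietin genes, the 10 higher and 10 lower genes with the smallest p, the 5 in each direction of the comparison with other nuclei, up to 3 of each further list and abundant markers of other cells. Nr4a1, Arc, Fos, Npas4, Npy, Ntf3, Nr4a3, App, Nrp1 and other genes given by level alone were chosen after their values were seen. Some genes are not reported here.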

Additional observations from a re-analysis of the deposited data

Results flagged for a closer look

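The share of granule nuclei in the ANGPT2 male of batch 1 was 2.92%, far from the 0.286% to 0.710% of the other 3 ANGPT2 AAV libraries. Akain1 was at 68.2 CPM in the ANGPT2 female of batch 2, against 55.9 to 57.5 CPM in the other 3. Gpr176 was at 92.5 CPM in the ANGPT2 female of batch 2, against 42.6 to 43.3 CPM. Khdrbs3 was at 19.5 CPM in the same library, against 49.0 to 52.9 CPM. That library held 38 granule nuclei, so these levels rest on 14, 19 and 4 UMIs. Of 38 groups of 4 libraries examined in this way, 4 stood out, and chance marks about 1 in 20 groups.

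The ANGPT2 effect on Hs3st2 in granule nuclei differed from that in other Slc17a7 nuclei, with a difference of -3.29 on the log2 scale by the interaction term.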

How the results depend on the processing

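The difference in the share of granule nuclei ranged from -1.22 to 0.469 percentage points when each library was left out, and that in the share with immediate early genes from -50.7 to -0.743. The number of genes called between ANGPT2 AAV and control AAV ranged from 0 to 114 when each library was left out and was 39 with no low-count filter, Sdk1, Sergef, Chrm3 and Neat1 among them. It was 0 without called doublets, within batch 1 and with batch, sex or both as terms. The number of genes whose effect differed from other Slc17a7 nuclei ranged from 0 to 374 when each library was left out, and was 32 with no low-count filter and 2 with upper quartile factors. With the replicate block it was 1, and 37 with the replicate block and without the control female of batch 1. The block on batch gave a permutation p of 0.5 for the share of granule nuclei and 0.333 for the share with immediate early genes, and changed no other call with all 7 libraries.

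Of 46 named gene values, 37 kept their sign under every alternative that gave a value. When each library was left out, log2 changes ranged from -3.28 to 0.39 for Bdnf, -0.14 to 1.49 for Calb1, -2.15 to 1.01 for Egr3, -2.37 to 0.39 for Homer1, -2.07 to 0.062 for Nrxn3 and -3.30 to 0.044 for Sorcs3, and each reversed value came without the control female of batch 1. With the replicate block and without that library they were 0.32 for Bdnf, -0.16 for Calb1, 0.84 for Egr3, 0.36 for Homer1, 0.056 for Nrxn3 and 0.015 for Sorcs3. With at least 3 markers and without that library they were 0.64 for Bdnf, 0.20 for Btg2, -0.058 for Calb1, 0.25 for Egr1, 0.60 for Egr3, 0.29 for Homer1, 0.12 for Jund, 0.021 for Nrxn3 and 0.56 for Sorcs3. The cause was not tested. The fits within batch 1, with the block or at least 3 markers and without that library, and with Slc17a7 not required were added after seeing the data. With at least 5 markers, libraries of fewer than 10 nuclei were left out. The 18 to 38 granule nuclei per library of batch 2 limit what can be seen of genes below 14.6 to 32.6 CPM.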
